A study of Mus musculus with 33 samples.

Results

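The cerebellum of mice lacking Cyrano was compared with that of wild-type mice in 8 of the 33 libraries of the series. Cyrano (1700020I14Rik, also Oip5os1) is a long noncoding RNA. The libraries are the 4 Cyrano knockout (CyrKO, Cyrano-/-) and the 4 wild-type (WT) cerebella of experiment 1B, chosen by their labels, and every gene of their count table was used. All 8 came from male C57Bl/6J mice aged 1 month, and the labels name no other allele and no treatment. The submitters describe the replicates as biological. Which bases of Cyrano the knockout removes, and whether it was made as 1 line, is not stated in the labels. Experiment 1B also holds 4 cerebella of mice without Mir7a1 and Mir7b, which are among the genes that encode miR-7 (Mir7DKO). Experiment 1A holds 4 cerebella in which the miR-7 site of Cyrano is mutated (CyrMut) and 3 WT cerebella of their own. The cerebella of Mir7DKO and of experiment 1A came from mice of the same strain, sex and age, and are used here only beside CyrKO.

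Cyrano is abundant in the brain and carries a site that pairs with the microRNA miR-7 far beyond the seed, the short 5′ stretch by which a microRNA finds its targets. Pairing of this kind can trigger the destruction of the microRNA itself, a process called target-directed microRNA degradation, and Cyrano is known to promote the loss of miR-7 in this way. Cdr1as, a circular RNA of neurons, holds many miR-7 seed matches, and it also holds a site at which another microRNA, miR-671, directs its cleavage. A microRNA otherwise lowers messenger RNAs that hold a seed match in the 3′ UTR. The comparison therefore bears on which RNAs of the cerebellum differ when Cyrano is missing. Mature microRNAs are not measured in libraries of polyadenylated RNA.

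The sequences below show miR-7 and matches to its seed in RNAs described here. Whether miR-7 acts on Nusap1 through its match was not tested. The mature forms of miR-7 differ from each other outside the seed, and capitals mark the seed, bases 2 to 8.
miR-7a-5p: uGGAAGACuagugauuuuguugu
miR-7b-5p: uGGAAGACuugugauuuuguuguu
The next line is the miR-7 site of Cyrano (GRCm38, chr2:119602136-119602161, + strand, bases 2934 to 2959 of an 8300-base transcript). Capitals mark the seed match and an unbroken run of 13 bases that pairs with bases 11 to 23 of miR-7a-5p.
Cyrano miR-7 site: aACAACAAAATCACcaatGTCTTCCA
Cyrano holds 2 matches to the 7-base seed, and at the other the longest such run was 3 bases. The next line is a miR-7 match in the 3′ UTR of Nusap1 (GRCm38, chr2:119649845-119649868, + strand), and the last is 1 of the 79 matches of 7 or 8 bases in the 1554 bases opposite the Cdr1 transcript, the strand that carries Cdr1as (GRCm38, chrX:61184033-61184056, + strand). Capitals mark the seed match and the base beside it.
Nusap1 3′ UTR site: tcctccatccacttGTCTTCCAca
Cdr1as miR-7 site: cctgaaaatccaccGTCTTCCAaa
A match alone is common. On the strand of the transcript, a 7-base match is either gtcttcc, which pairs with the whole seed, or its neighbour shifted by 1 base, tcttcca. The 8-base match is gtcttcca and contains both. Of 21173 annotated 3′ UTRs, 24.82% held a match of 7 or 8 bases and 3.83% held the 8-base match. The mature miRNA sequences are those of RefSeq (GRCm38.p6).

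The CyrKO libraries held 8.15 to 11.45 M counts and the WT libraries 9.48 to 13.78 M. Mitochondrial genes took 4.95 to 6.23% of the counts in CyrKO and 4.95 to 5.74% in WT. Markers of cerebellar cells were abundant. The granule cell receptor subunit Gabra6 was at 949 to 1017 CPM (counts per M counts, on scaled library sizes) in CyrKO and 872 to 998 CPM in WT. WT replicate 4 stood apart from the others on the first principal component, which held 25.7% of the variance. The second component held 19.1%. On it the CyrKO libraries were at -1.99, 4.79, 13.2 and 15.3 and the WT libraries at -6.8, -8.04, -13.6 and -2.9. The groups did not overlap there, by a narrow margin. Values without WT replicate 4, and without CyrKO replicate 2, which was low in markers given below, stand beside the results they touch. In bulk tissue, fewer cells of a type and less RNA per cell cannot be told apart.

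Cyrano was at 76.9, 74.7, 80.2 and 88.3 CPM in the CyrKO libraries, against 1955, 1970, 1882 and 1579 CPM in the WT libraries. Each CyrKO library was far below each WT library, and the residual level was 4.33% of that in WT, which checks the genotype labels. The log2 change was -4.53 (SE 0.089, 95% interval -4.72 to -4.34, edgeR adjusted p = 1.1e-12). The gene lies on chromosome 2 from 119594297 to 119607502 (GRCm38, + strand), and 3171 counts remained on it over the 4 CyrKO libraries, against 84256 in WT. Which bases of the gene these reads came from cannot be read from counts per gene.

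Cdr1as was at 142, 89.5, 126 and 113 CPM in CyrKO, against 649, 989, 1019 and 1152 CPM in WT. It fell by 3.02 on the log2 scale (SE 0.17, 95% interval -3.38 to -2.66, edgeR adjusted p = 3.7e-07), to 12.4% of the WT level. The groups did not overlap, although WT replicate 1 lay well below the other 3 WT libraries. Cdr1as is circular and has no poly(A) tail of its own, so its counts come from RNA that remained after selection for polyadenylated RNA.

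The RNA from which Cdr1as is thought to be made did not pass the test. C230004F18Rik, a long noncoding RNA that spans the Cdr1 locus (chromosome X, 61116378 to 61292484, GRCm38, + strand), was at 14.9, 14.5, 18.7 and 19.5 CPM in CyrKO and at 18.1, 20, 13.0 and 12.2 CPM in WT. These ranges overlapped, with a log2 difference of 0.11 (SE 0.16, edgeR adjusted p = 0.868). Hnrnpk, whose intron holds Mir7-1, was at 201 to 227 CPM in CyrKO and 193 to 221 CPM in WT, a difference of 0.03 (SE 0.062, edgeR adjusted p = 0.905). The features Mir7-2, Mir7b and Mir671 had 0 counts in all 8 libraries, Mir7-1 reached at most 0.495 CPM in CyrKO and 0.427 CPM in WT, and none of them was tested.

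Nusap1 was the gene that passed the test upward. It encodes a spindle protein that binds microtubules, and its gene starts 10.8 kb downstream of the end of Cyrano on the same strand (chromosome 2, 119618298 to 119651244, GRCm38). It was at 18.9, 17.1, 21 and 20 CPM in CyrKO, against 1.44, 0.961, 1.57 and 1.08 CPM in WT. The libraries of each group lay close together and the groups were far apart. The log2 change was 3.92 (SE 0.15, 95% interval 3.6 to 4.25, edgeR adjusted p = 4.9e-09), a 15.3-fold higher level that rests on 761 counts in CyrKO and 58 in WT. Nusap1 carries the 8-base miR-7 match printed above, and its change was upward.

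**Figure D1:**
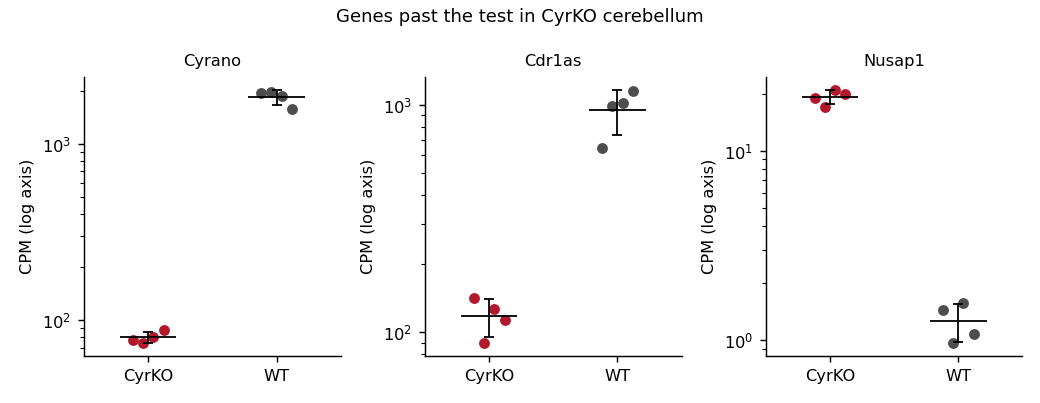
Levels of Cyrano, Cdr1as and Nusap1 in CPM on log axes, with 1 point per library, CyrKO left of WT, and lines for the mean and SD (n = 4 each). Cyrano and Cdr1as are lower in all 4 CyrKO libraries than in any WT library, and Nusap1 is higher, at 17.1 to 21 CPM against 0.961 to 1.57 CPM.

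These were the genes that passed the test. Of 13664 genes tested, 3 passed at an adjusted p under 0.05 (0.022%), 1 higher (0.00732%) and 2 lower (0.0146%). At an unadjusted p under 0.05 there were 394 genes higher (2.88%) and 610 lower (4.46%). The CyrKO and WT libraries did not overlap for 554 genes (4.05%), 268 higher (1.96%) and 286 that were lower (2.09%). The median log2 change over all genes tested was -0.002. The authors' deposited table lists the same 3 genes at an adjusted p under 0.05, with log2 changes of -4.53 for Cyrano, -3.02 for Cdr1as and 3.94 for Nusap1.

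The libraries were precise enough to bound most other genes. The 95% interval of the change lay inside 2-fold in either direction for 96.9% of genes tested, inside 1.5-fold for 83.8% and inside 1.25-fold for 52.8%. Among the 7837 genes with a mean normalised count of 200 or more, 98.8% lay inside 1.5-fold. Among the 2453 genes under 50, the share was 26.6%.

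**Figure D2:**
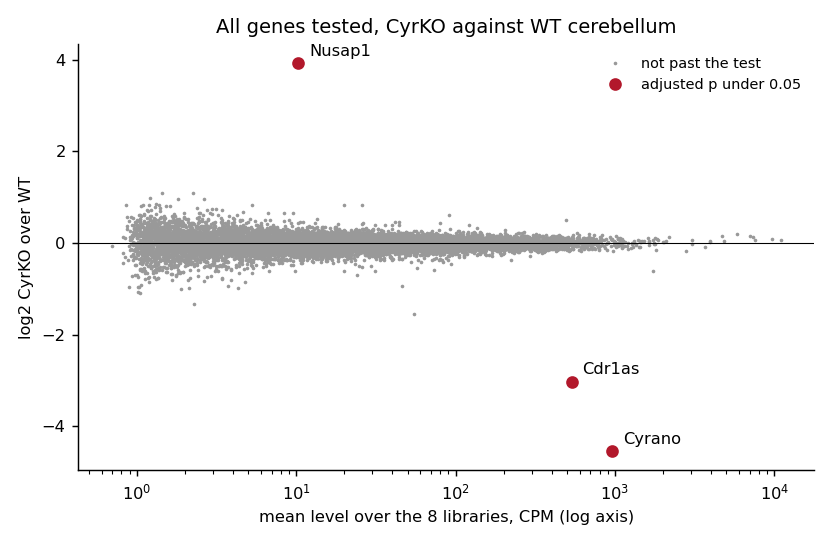
Log2 change of CyrKO over WT against the mean level over the 8 libraries (CPM, log axis), with 1 point for each of 13664 genes tested. Cyrano, Cdr1as and Nusap1, in red, pass the test and lie far outside the cloud of the other genes.

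The genes next in rank by p did not pass, all at an adjusted p of 0.598 or above in edgeR's test. Cox6a1, a subunit of cytochrome c oxidase, was at 69.4, 81.2, 70 and 66.3 CPM in CyrKO and 93.9, 86.5, 103 and 89.3 CPM in WT. Its groups did not overlap, with a log2 difference of -0.38 (SE 0.076). Ache, the enzyme that breaks down acetylcholine, was at 36.5 to 42.8 CPM in CyrKO and 47.9 to 54.1 CPM in WT (-0.35, SE 0.075). Slc32a1, the transporter that loads GABA and glycine into synaptic vesicles, was at 70 to 83.3 CPM in CyrKO and 92.9 to 101 CPM in WT (-0.32, SE 0.068). The actin bundler Fscn1 had a difference of -0.35 (SE 0.081), the microtubule-associated Map1s one of -0.45 (SE 0.098), and Snx22, a sorting nexin, one of -0.66 (SE 0.14).

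Among genes that were higher without passing, Nup37, a nuclear pore subunit, was at 2.72, 3.89, 3.37 and 3.83 CPM in CyrKO and at 1.67, 2.03, 1.88 and 1.65 CPM in WT (0.96, SE 0.20). Kcnj2, an inward-rectifier potassium channel, was at 4.81 to 7.06 CPM in CyrKO and 3.34 to 3.84 CPM in WT (0.68, SE 0.16). Celsr1, a cadherin of planar cell polarity, was at 1.48 to 1.79 CPM in CyrKO and 0.640 to 0.860 CPM in WT (0.99, SE 0.24). Synpr, a synaptic vesicle protein, was at 71.5 to 77.7 CPM in CyrKO and 60.4 to 66.9 CPM in WT (0.23, SE 0.061). For each of these 4 genes the groups did not overlap. At an unadjusted p under 0.05 and a mean normalised count from 50 upward, the widest differences beside the genes that passed included 0.84 for Gda (SE 0.33), a guanine deaminase, and 0.66 for Ranbp3l (SE 0.17) upward. Downward they included -0.66 for the transcription factor Klf2 (SE 0.30) and -0.62 for Romo1 (SE 0.17), a small mitochondrial protein.

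Messenger RNAs with miR-7 matches were then compared with those without. Genes with a mean normalised count from 50 upward were grouped by the best match in their longest annotated 3′ UTR. The 3332 genes with a match of 7 or 8 bases had a median log2 change of 0.005, and the 5143 genes without even a 6-base match (tcttcc) had -0.009, so site genes were 0.013 higher. The difference was 0.017, 0.011, 0.019 and 0.010 in the CyrKO libraries, and 0.004, 0.001, -0.004 and -0.006 in the WT libraries, each set against the WT mean. For the 545 genes with the 8-base match the median was -0.005. At an unadjusted p under 0.05, 5.14% of these 8-base genes were lower and 2.75% higher, against 5.48% and 2.68% of genes without a site and 4.46% and 2.88% of all genes tested. Nusap1 was the site gene that passed the test, upward.

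Length of the 3′ UTR moved with the change, and site genes have long ones. The median length was 2606 bases for genes with a match and 921 bases for genes without. In the 1683 genes with a 3′ UTR under 500 bases the median log2 change was -0.056, with 9.03% lower and 1.60% higher at an unadjusted p under 0.05. It was -0.021 from 500 to under 1500 bases, 0.010 from 1500 to under 3000 bases, and 0.038 in the 2358 genes with 3000 bases or more, with 1.53% lower and 4.37% higher. In the shortest class the medians per library were -0.043, -0.020, -0.066 and -0.070 in CyrKO and -0.011, -0.007, 0.011 and 0.022 in WT, which did not overlap. In the longest class they were 0.045, 0.015, 0.052 and 0.040 in CyrKO and 0.027, 0.033, -0.009 and -0.050 in WT, which did, with WT replicate 4 lowest. Whether RNA quality or library preparation has a part in this was not tested.

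Among genes with long 3′ UTRs the order was different. With at least 1500 bases, the 1559 genes without a site had a median of 0.030 and the 2550 genes with a match of 7 or 8 bases had 0.021, so site genes were lower by 0.009. The 425 genes with the 8-base match had a median of 0.005, a difference of -0.025 from genes without a site. It was -0.012 for the 967 genes whose best match was gtcttcc, -0.002 for the 1158 genes with tcttcca, and -0.016 for the 1600 genes with the 6-base match alone. The median 3′ UTR was 3199, 3279, 3082 and 2661 bases in these classes, from the 8-base match to the 6-base match alone. Whether the difference follows the length of the match was not tested. For the 8-base genes the difference was -0.004, -0.016, -0.023 and -0.058 in the CyrKO libraries and -0.008, -0.003, -0.005 and 0.027 in the WT libraries. CyrKO replicate 1 lay within the WT range, and CyrKO replicate 4 and WT replicate 4 were the extremes. From 1500 to under 3000 bases the difference was -0.033 for the 8-base genes. It was nearly the same for the others, at -0.030 for gtcttcc, -0.026 for tcttcca and -0.027 for the 6-base match alone. At 3000 bases or more it was -0.027, -0.009, 0.006 and -0.010 in the same order.

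**Figure D3:**
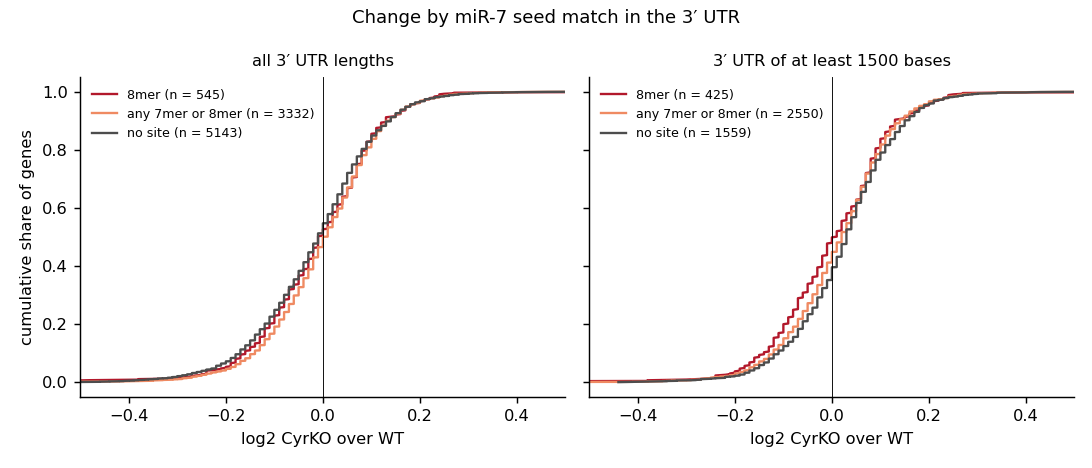
Cumulative share of genes (mean normalised count of at least 50) by log2 change of CyrKO over WT, for genes with an 8-base miR-7 match, with any match of 7 or 8 bases, and without a site, at all 3′ UTR lengths (left) and at 1500 bases or more (right). The curves nearly coincide on the left, and on the right the 8-base genes lie slightly to the left of genes without a site, with medians of 0.005 and 0.030.

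Of 31 reported miR-7 targets, 30 were tested and 0 passed. The median was -0.02, with a range of -0.54 to 0.20, 13 were above 0, and 2 of the 30 had an unadjusted p under 0.05, both lower, a share near the 4.46% of all genes. Zdhhc9, a palmitoyltransferase, was at 70.3, 58.0, 59.9 and 65.1 CPM in CyrKO and 71.8, 72.9, 74.8 and 70.4 CPM in WT. These values did not overlap, by a narrow margin, with a log2 difference of -0.20 (SE 0.069, edgeR adjusted p = 0.677). Cplx1, a regulator of vesicle fusion, was at 378 to 394 CPM in CyrKO and 393 to 456 CPM in WT (-0.14, SE 0.056). Irs2, an adaptor of the insulin receptor, differed by -0.18 (SE 0.13), the transcription factor Klf4 by -0.54 (SE 0.30), the patterning factor Pax6 by 0.09 (SE 0.057), the growth-cone protein Basp1 by 0.20 (SE 0.11) and the ubiquitin-conjugating enzyme Ube2a by 0.16 (SE 0.099).

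Within 500 kb of Cyrano, 43 genes are annotated and 22 were tested. Apart from Nusap1, the other 21 had a median log2 change of -0.03 and a range of -0.28 to 0.65, and 0 passed. Chp1, a calcium-binding protein 7.3 kb upstream of Cyrano, had a difference of 0.07 (SE 0.058), and Ndufaf1, an assembly factor of respiratory complex I 47.9 kb downstream, one of -0.08 (SE 0.10). Exd1, a gene of the piRNA pathway 46.7 kb upstream, was at 2.97, 3.69, 3.08 and 2.53 CPM in CyrKO and 2.05, 1.92, 1.36 and 2.29 CPM in WT. The groups did not overlap, but the difference of 0.65 (SE 0.21, edgeR adjusted p = 0.677) did not pass over all genes. Vps18, a subunit of vacuolar sorting complexes, differed by -0.24 (SE 0.085). Oip5, a centromere factor for which Cyrano is named, had 12 counts over the CyrKO libraries and 22 over the WT libraries and was not tested.

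**Figure D4:**
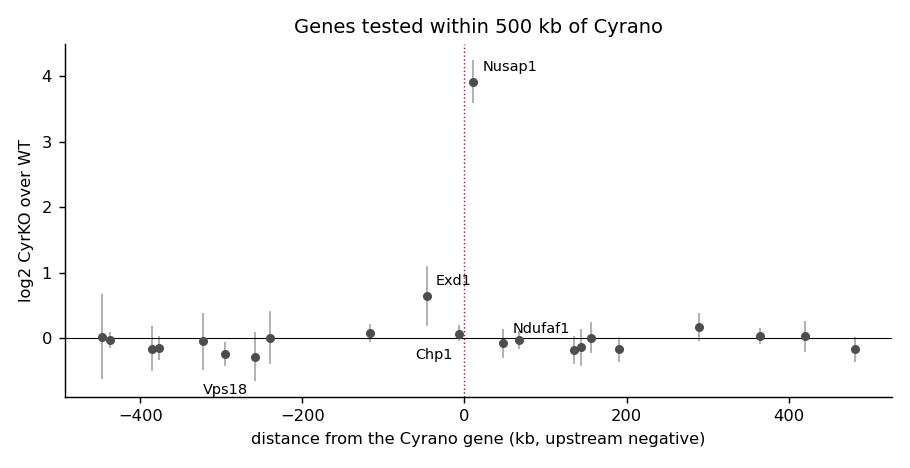
Log2 change of CyrKO over WT, with its 95% interval, for the 22 genes tested within 500 kb of Cyrano, against distance in kb. Nusap1, 10.8 kb downstream, is at 3.92, and the others lie between -0.28 and 0.65.

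Nusap1 did not move with other genes of mitosis. Of 30 genes of mitosis and the cell cycle, 20 were tested, 1 passed upward (Nusap1) and the other 19 did not pass. The median of the 20 was 0.01. Knstrn, a kinetochore protein, was at 2.27 to 3.57 CPM in CyrKO and 1.86 to 2.67 CPM in WT (0.34, SE 0.21), and Mcm5, a subunit of the replicative helicase, at 5.69 to 6.45 CPM in CyrKO and 5.69 to 9.32 CPM in WT (-0.26, SE 0.16).

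The machinery that makes and destroys microRNAs was measured through 34 of 35 genes, and 0 passed. Their median was 0.06, with 24 above 0, where 50.7% of genes at a mean normalised count from 50 upward were below 0. Medians per library overlapped, at 0.018 to 0.073 in CyrKO and -0.084 to 0.041 in WT. The median 3′ UTR of this list was 2239 bases, in the length class whose median over all genes was 0.010. Zswim8, the receptor subunit of the ubiquitin ligase needed for target-directed microRNA degradation, was at 166, 168, 147 and 145 CPM in CyrKO and 176, 175, 161 and 174 CPM in WT. The values overlapped, with a difference of -0.13 (SE 0.063, edgeR adjusted p = 0.679). Ago2, the slicing Argonaute protein, was at 178 to 222 CPM in CyrKO and 181 to 223 CPM in WT (-0.09, SE 0.080). Dicer1, which cuts microRNA precursors, was at 122 to 142 CPM in CyrKO and 110 to 129 CPM in WT (0.12, SE 0.065). Its partner Tarbp2 had a difference of -0.31 (SE 0.12, edgeR adjusted p = 0.677), and the exonuclease Xrn2 one of 0.18 (SE 0.070).

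Nuclear genes of the respiratory chain were mostly a little lower in CyrKO without passing the test. Of 54 tested, 0 passed, 43 were below 0, against 50.7% of genes at a mean normalised count from 50 upward, and 15 had an unadjusted p under 0.05, all lower, against 4.46% of all genes. The median was -0.08, and 5 of the 54 did not overlap between groups, again lower, against 2.09%. Ndufv1, the NADH-binding subunit of complex I, was at 84.7, 88.3, 82.5 and 78.0 CPM in CyrKO and 91.2, 97.3, 99.6 and 95.7 CPM in WT (-0.20, SE 0.059, edgeR adjusted p = 0.677). Ndufa1, another subunit of complex I, was at 11.5 to 16.3 CPM in CyrKO and 14.8 to 18.9 CPM in WT (-0.40, SE 0.12). The median deviation of the 54 genes from the WT mean was -0.154, -0.019, -0.092 and -0.108 in the CyrKO libraries and 0.019, 0.000, 0.020 and -0.037 in the WT libraries, and CyrKO replicate 2 lay within the WT range. Without CyrKO replicate 2 and WT replicate 4, a choice made after the data were seen, the median change was -0.13. These were the highest CyrKO library and the lowest WT library for this list, so leaving them out widens the difference by construction.

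The median 3′ UTR of these 54 genes was 272 bases, in the length class whose median over all genes was -0.056. Cytosolic ribosomal protein genes have equally short ones, with a median of 278 bases. Of 46 tested, 0 passed, 3 were higher and 3 lower at an unadjusted p under 0.05, against 2.88% and 4.46% of all genes, and the median was -0.05. Rplp1, a protein of the ribosomal stalk, was at 51.4 to 71.0 CPM in CyrKO and 61.0 to 88.0 CPM in WT (-0.38, SE 0.12), and Rpl34, a protein of the large subunit, at 32.6 to 39.3 CPM in CyrKO and 28.1 to 30.2 CPM in WT (0.31, SE 0.078). Of 7 mitochondrially encoded mRNAs tested, 0 passed and 6 were above 0, with a median of 0.09. The part that 3′ UTR length has in the respiratory chain values was not tested.

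Glucocorticoid-induced genes had a median of -0.17 over 17 tested, with 0 that passed and 3 lower at an unadjusted p under 0.05, where 4.46% of all genes were lower. Ddit4, an inhibitor of mTORC1 signalling, was at 19.6, 22.2, 20.4 and 22.2 CPM in CyrKO and 32.7, 26.8, 36.6 and 26.2 CPM in WT (-0.53, SE 0.11, edgeR adjusted p = 0.598). The kinase Sgk1 was at 69.7, 54.1, 60.8 and 49.5 CPM in CyrKO and 106, 57.3, 112 and 73.6 CPM in WT (-0.58, SE 0.18, edgeR adjusted p = 0.677). Ddit4 did not overlap between groups and Sgk1 did, with WT replicates 1 and 3 high. Nfkbia, the inhibitor of NF-kappaB, differed by -0.39 (SE 0.15). Activity-induced early genes varied widely between WT libraries, whose list medians were -0.177, 0.216, 0.545 and -0.596, against 0.110, -0.245, -0.154 and 0.004 in CyrKO. Of 22 tested, 0 passed, and the salt-inducible kinase Sik1 was nearest among them (-0.60, SE 0.22, edgeR adjusted p = 0.677).

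The medians of synaptic genes lay close to 0. Of 28 genes of vesicle release, 0 passed and the median was -0.02. At an unadjusted p under 0.05, 1 was higher and 3 lower, against 2.88% and 4.46% of all genes. The groups did not overlap for 1 that was higher and 2 that were lower, against 1.96% and 2.09% of all genes. Syt1, the calcium sensor of fusion, was at 684, 757, 810 and 687 CPM in CyrKO and 632, 652, 622 and 670 CPM in WT (0.19, SE 0.063), and Sncb, beta-synuclein, at 165, 184, 180 and 172 CPM in CyrKO and 191, 196, 232 and 201 CPM in WT (-0.22, SE 0.067). Neither gene overlapped between groups, and they differed in opposite directions. Of 31 glutamate and GABA receptor subunits, 0 passed, 23 were above 0 and the median was 0.05. Their medians per library overlapped, at 0.022 to 0.084 in CyrKO and -0.063 to 0.064 in WT. Their median 3′ UTR was 2586 bases, in the length class whose median over all genes was 0.010. Grm5, a metabotropic glutamate receptor, was at 13.4 to 14 CPM in CyrKO and 10.3 to 12.5 CPM in WT (0.27, SE 0.094).

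The other pathways had 0 genes that passed, apart from Cyrano itself among the long noncoding RNAs. The median was -0.02 over 20 clock genes, where Per1, a light- and hormone-responsive clock gene, was at 52.6 to 121 CPM in CyrKO and 72.1 to 147 CPM in WT (-0.45, SE 0.23). It was -0.03 over 23 genes of cholesterol synthesis, with Fdps, farnesyl diphosphate synthase, at -0.30 (SE 0.11). It was -0.02 over 21 stress-response genes (unfolded protein and integrated stress), with the chaperone Canx at 0.18 (SE 0.074). It was 0.03 over 20 genes of the interferon response and antigen presentation, with the MHC class I light chain B2m at 0.24 (SE 0.12). Over 17 long noncoding RNAs it was 0.05, and Malat1, a nuclear RNA, was at 4564 to 5427 CPM in CyrKO and 4008 to 4663 CPM in WT (0.16, SE 0.073).

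The cell types of the cerebellum were present at like levels. The summed level of 15 Purkinje cell markers was 10460 to 10763 CPM in CyrKO and 10224 to 10777 CPM in WT, with a median log2 change of 0.02. The 14 granule cell markers summed to 9367 to 10240 CPM in CyrKO and 9509 to 10100 CPM in WT, and the 16 markers of astrocytes and Bergmann glia to 7732 to 8105 CPM in CyrKO and 7777 to 8091 CPM in WT. No marker of any list passed the test. The median change was -0.02 over 13 markers of inhibitory interneurons, -0.06 over 16 of oligodendrocytes, -0.04 over 9 of oligodendrocyte precursors, -0.05 over 14 of microglia, -0.01 over 13 of endothelial cells, 0.09 over 9 of mural cells, 0.03 over 13 of meningeal fibroblasts, 0.07 over 5 of ependymal cells and -0.04 over 8 of the forebrain. Among them the Purkinje cell genes Homer3, a postsynaptic scaffold, and Foxp2, a transcription factor, differed in opposite directions (-0.18, SE 0.064, and 0.24, SE 0.098). The interneuron factor Pax2 was at 6.65 to 7.67 CPM in CyrKO and 8.12 to 8.97 CPM in WT (-0.25, SE 0.11), and Olig1, a factor of the oligodendrocyte lineage, at 34.3 to 42.8 CPM in CyrKO and 43.9 to 48.3 CPM in WT (-0.20, SE 0.081).

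CyrKO replicate 2 was low in markers of oligodendrocytes and of brainstem and deep nuclei. Its median deviation was -0.489 over 16 oligodendrocyte markers, against 0.022 to 0.115 in the other CyrKO libraries and -0.066 to 0.042 in WT. Over 6 markers of brainstem and deep nuclei it was -0.464, against 0.054 to 0.151 in the other CyrKO libraries and -0.048 to 0.067 in WT. Nefm, a neurofilament subunit, was at 167, 108, 160 and 159 CPM in CyrKO and 155, 161, 151 and 146 CPM in WT. The low value is replicate 2, and the log2 difference of -0.05 (SE 0.11) became 0.08 without that library. Choroid plexus markers differed between single libraries, with a summed level of 182 to 483 CPM in CyrKO and 208 to 906 CPM in WT and a median change of -0.36 over 11 tested. Ttr, a thyroid hormone carrier made in the choroid plexus, was at 109, 2.36, 1.29 and 1.74 CPM in CyrKO and 5.54, 314, 0.941 and 0.358 CPM in WT.

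Red blood cell genes separated 1 WT library from the rest. Hbb-bs, a beta-globin chain, was at 640, 805, 446 and 428 CPM in CyrKO and 140, 251, 197 and 1039 CPM in WT. WT replicate 4 was above every CyrKO library, and the other 3 WT libraries were below every one. Hba-a1, an alpha-globin chain, was at 162, 203, 95.9 and 92.5 CPM in CyrKO and 33.3, 56.6, 46.7 and 279 CPM in WT, and Alas2, the first enzyme of heme synthesis in red cells, at 52.9, 73.4, 40.6 and 37.9 CPM in CyrKO and 12.5, 24.7, 19.0 and 89.8 CPM in WT. The median of the 6 erythrocyte markers tested was 0.45 and 0 passed (Hbb-bs 0.51, SE 0.48, edgeR adjusted p = 0.790).

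Without WT replicate 4 the test called 10 genes in place of 3. The additional 7 were higher in CyrKO. For each of them WT replicate 4 was the highest WT library, so leaving it out widens the difference by construction. Hbb-bt had a log2 change of 1.65 (SE 0.19, edgeR adjusted p = 0.00136), Hbb-bs of 1.57, Hba-a2 of 1.67, Hba-a1 of 1.61 and Alas2 of 1.47. Gda was at 6.44, 9.12, 5.66 and 6.19 CPM in CyrKO and 2.35, 2.67, 2.09 and 7.46 CPM in WT, and changed by 1.53 without that library. Fam46c, a poly(A) polymerase, was at 17.7, 21.7, 13.0 and 12.3 CPM in CyrKO and 5.46, 7.47, 7.42 and 22.7 CPM in WT, and changed by 1.26. Both had the pattern of the globins, with the fourth WT library at or above the lower CyrKO libraries. The amount of blood left in each piece of tissue is not recorded in the labels, and its part in these genes was not tested.

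**Figure D5:**
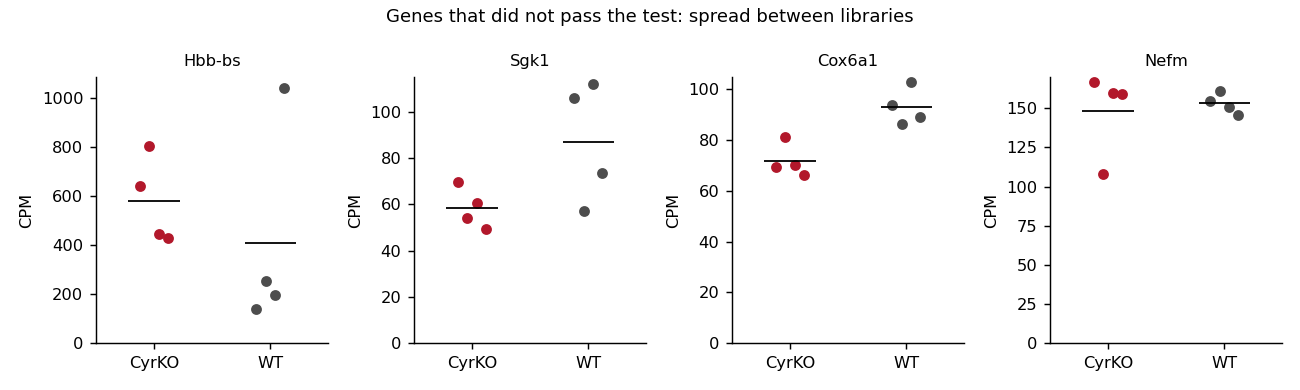
CPM per library in CyrKO (left of each panel) and WT (right) for Hbb-bs, Sgk1, Cox6a1 and Nefm, genes that did not pass the test, with a line at each group mean (n = 4 each). For Hbb-bs 1 WT library stands at 1039 CPM above the other 3, for Nefm 1 CyrKO library stands at 108 CPM below the others, and for Cox6a1 the groups do not overlap.

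Loss of Cyrano was set beside mutation of its miR-7 site alone, each against the WT libraries of its own experiment, in a single fit of 15 libraries. Of 14761 genes, 2 differed between the changes (0.0135%), Nusap1 upward (0.00677%) and Cyrano downward (0.00677%), and 585 had an unadjusted p under 0.05 (3.96%). Cyrano changed by -4.53 (SE 0.082) in CyrKO and was at 0.21 (SE 0.075, edgeR adjusted p = 0.931) in CyrMut, a difference of -4.73 (SE 0.11, edgeR adjusted p = 4.4e-15). Nusap1 rose by 3.92 (SE 0.17) in CyrKO and was at -0.08 (SE 0.23) in CyrMut, a difference of 4.00 (SE 0.30, edgeR adjusted p = 9.6e-07). Its level in CyrMut was 0.969 to 1.19 CPM, against 0.881 to 1.75 CPM in WT of experiment 1A.

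Cdr1as fell in both mutants. The log2 change was -3.02 (SE 0.16) in CyrKO and -3.34 (SE 0.16, edgeR adjusted p = 1.5e-09) in CyrMut. The difference of 0.31 (95% interval -0.14 to 0.77) did not pass the test, which does not show that the changes are equal. For 98.2% of 11626 genes with a mean normalised count from 50 upward, the interval of the difference lay inside 2-fold. Cox6a1 was at -0.38 (SE 0.090) in CyrKO and -0.04 (SE 0.093) in CyrMut, and Sgk1 at -0.59 (SE 0.22) in CyrKO and 0.10 (SE 0.23) in CyrMut, and neither difference passed. In 3′ UTRs of at least 1500 bases, genes with the 8-base match lay below genes without a site by 0.025 in CyrKO and by 0.014 in CyrMut. In CyrMut the difference was -0.009 for genes with gtcttcc, 0.001 for those with tcttcca and -0.004 for the 6-base match alone.

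CyrKO was also compared directly with Mir7DKO of the same experiment, without the WT libraries. Of 13814 genes, 7 passed (0.0507%), 2 higher (0.0145%) and 5 lower (0.0362%) in CyrKO, and 1410 had an unadjusted p under 0.05 (10.2%). Cdr1as was at 89.6 to 143 CPM in CyrKO and 1018 to 1634 CPM in Mir7DKO, a log2 change of -3.41 (SE 0.16, edgeR adjusted p = 7.9e-08). Cyrano changed by -4.49 (SE 0.097) and Nusap1 by 4.03 (SE 0.16), with Nusap1 at 17.1 to 21.1 CPM in CyrKO and 0.740 to 1.47 CPM in Mir7DKO. The other 4 were Cd59a, an inhibitor of complement attack (-1.09, SE 0.16), Chchd10, a mitochondrial protein (-0.46, SE 0.064), Fndc4, a secreted fibronectin-domain protein (-0.37, SE 0.057), and Fam46c (1.19, SE 0.18). Of these 4, none passed in CyrKO against WT, where they were at -0.09, -0.22, -0.25 and 0.53. Red cell genes differed from Mir7DKO in the direction of Fam46c without passing, with Hbb-bs at 1.31 (SE 0.27), Hba-a1 at 1.40 (SE 0.28) and Alas2 at 1.32 (SE 0.24), and their part in Fam46c was not tested. With 1 library left out the count of calls ran from 3 to 99. It was 99 without Mir7DKO replicate 1, and 3 without CyrKO replicate 1, 2 or 3 or Mir7DKO replicate 2, and 4 without Mir7DKO replicate 3 or 4. In 3′ UTRs of at least 1500 bases, genes with the 8-base match lay below genes without a site by 0.015. The difference was -0.016 for genes with gtcttcc, 0.001 for those with tcttcca and -0.017 for the 6-base match alone. An order by length of the match was not tested, here or in CyrMut.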

How the data were processed

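Polyadenylated RNA of frozen cerebellum was made into stranded libraries, per the labels' protocols. Per the submitters' processing notes, the tools were STAR 2.4, DESeq2 1.10 and HTSeq 0.6.1p1, and the builds named are GRCm38 and mm10. The authors deposited raw counts per gene for 38393 features, a normalised signal (count divided by 1 size factor per library), and, per the file headers, DESeq2 output (log2 fold change, Wald score, p-value before and after adjustment). The annotation release and the use of strand in counting are not given in the sources that were read, so overlapping and antisense genes, pseudogenes and multicopy genes such as the globins are uncertain. A total of 28 per-sample columns, in 2 of 5 deposited tables, was not used. In the deposited CyrMut counts, 1 record lacked a cell, which was put back, and 1 WT count differs between the tables of experiment 1B.

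The quasi-likelihood F-test of edgeR 4.0.16 (R 4.3.3) was run on the counts after filterByExpr (minimum count 10) and TMM scaling. P-values were adjusted by Benjamini-Hochberg over all genes tested, at a threshold of 0.05, with no covariate in CyrKO against WT and against Mir7DKO, and with experiment as a term in the CyrMut comparison. The SE is the size of the log2 change divided by the root of F, and 95% intervals use the test's degrees of freedom. Levels in CPM use TMM-scaled library sizes, and counting error and a biological coefficient of variation of 8.98% set the precision. Where a text value is a list's deviation per library, it is the median log2(CPM + 0.5) minus the WT mean. miR-7 matches were searched in the longest annotated 3′ UTR of each gene (GENCODE vM21, GRCm38), which was had for 12897 of the genes tested. No pair of libraries agreed within sampling noise. Alternatives were DESeq2 1.42.0, its size factors, no filter, the replicate number as a block, other count minimums and each library left out. In simulated data on the 13664 genes of CyrKO against WT, 75.7% of genes changed 1.5-fold and 85.7% of those changed 2-fold were recovered, with 11 false calls. There 70 genes were changed at each of these folds and 60 at 4-fold, all at once. Adjustment is less strict when many genes change, so these shares overstate recovery where 3 genes passed, as in the real data.

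The genes named are the network RNAs, genes that passed, 10 genes by smallest p and 6 by largest change in each direction (the 6 at p under 0.05 and a mean normalised count from 50 upward), 3 of each list by p, the 6 reported targets and 6 site genes of smallest p, and genes called in the other comparisons. Irs2, Ago2, Dicer1, Gabra6, Ttr, Oip5, Alas2, Hba-a1, Hba-a2, Myh4, Mir3097, Chp1 and Ndufaf1 were named after their values were seen. The results of some genes are not reported here. The members, lists and tests were chosen with earlier results of these data known.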

Additional observations from a re-analysis of the deposited data

Results flagged for a closer look

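In 27 of 260 groups of 4 libraries looked at (130 genes), 1 library stood off from the other 3 by a gap above the 95% critical value of Dixon's test. Chance flags about 1 in 20 groups, and the genes of 1 library are not independent. Some of the flagged genes (Ttr, Alas2, Hba-a1, Hba-a2 and Ago2) were named after their values were seen. The number of flags can therefore not be set against that rate. In WT replicate 4 the high values were Hbb-bs at 1039 CPM (others 140 to 251), Hbb-bt at 177, Hba-a1 at 279, Hba-a2 at 180, Alas2 at 89.8, Fam46c at 22.7 and Gda at 7.46 CPM, and the low ones Rplp1 at 61.0 and Ago2 at 181 CPM. WT replicate 2 was high in the choroid plexus genes Ttr at 314 CPM (others 0.358 to 5.54) and Clic6 at 20.8 CPM and in the ciliogenesis factor Foxj1 at 6.08 CPM, and low in Celsr1 at 0.640 CPM and Herpud1 at 45.3 CPM. WT replicate 3 was high in Rbfox3 at 532 CPM and Ppp1r1b at 109 CPM and low in Zswim8 at 161 CPM. In the other genotype, CyrKO replicate 2 was low in Nefm at 108 CPM (others 159 to 167), Spp1 at 8.91 CPM and Gria3 at 199 CPM, and high in Romo1 at 6.97 CPM and the red cell gene Slc4a1 at 7.27 CPM. CyrKO replicate 1 was high in Ttr at 109 CPM (others 1.29 to 2.36) and Fosl2 at 28.2 CPM. CyrKO replicate 4 was high in Prg4 at 18 CPM and low in Pde10a at 110 CPM (others 194 to 205). Cacng4 was low in CyrKO replicate 3 at 32.3 CPM.

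The change in CyrKO differed from that in CyrMut for Cyrano, by -4.73 on the log2 scale, and for Nusap1, by 4.00, each past edgeR's test of the difference itself.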

How the results depend on the processing

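Cyrano, Cdr1as and Nusap1 passed the test in CyrKO against WT with every library left out in turn, with DESeq2 or its size factors, and with no filter. The count of genes that passed was 3 to 10 with 1 library left out (10 without WT replicate 4) and 10 with no filter. It was 12 without WT replicate 4 and CyrKO replicate 2 together, a choice made after the data were seen. There Cox6a1 (-0.46, edgeR adjusted p = 0.025) and Rplp1 (-0.57, edgeR adjusted p = 0.00982) also passed. CyrKO replicate 2 was the highest CyrKO library for both genes, and WT replicate 4 was below the WT mean for both. Leaving them out therefore widens these differences by construction. With no filter the additional genes were Gm26924, Ddit4, Sgk1, Mir3082, Cox6a1, Mir3097 and Myh4, all lower, and Myh4 had counts in 1 WT library and 1 CyrKO library. The 2 genes that differed between CyrKO and CyrMut were 2 under each alternative run. Against Mir7DKO the count was 7, and 56 with DESeq2, 66 with no filter and 3 to 99 with 1 library left out. The cause was not tested. The site-gene difference of 0.013 was 0.010 to 0.018 with 1 library left out, 0.003 for 8-base matches alone, and, as choices made after the data were seen, -0.009 and, for 8-base matches, -0.025 in 3′ UTRs of at least 1500 bases.

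Deviations of CyrKO and WT libraries with the same replicate number correlated at 0.112, -0.232, 0.0104 and -0.0156, and those with different numbers at -0.248 to 0.321. For CyrKO and Mir7DKO the same-number values were 0.0289, 0.0319, 0.0972 and 0.0812, and the others -0.171 to 0.104. No pairing by replicate number was seen, but so few values cannot show that there is none. With the replicate number as a block the counts were 3, 2 and 7, where the 7 against Mir7DKO shared 6 with the fit without the block and Fndc4 no longer passed, and the site-gene difference 0.015. Differences that changed sign with 1 library left out ranged over -5.45 to 3.53 for Ttr, -0.28 to 0.02 for Pde10a, -0.01 to 0.23 for C230004F18Rik, -0.01 to 0.07 for Hnrnpk, -0.11 to 0.08 for Nefm, -0.12 to 0.08 for Nefh, -0.04 to 0.29 for the brainstem marker Spp1 and -0.20 to 0.49 for the ependymal marker Ak7. Without WT replicate 4 and CyrKO replicate 2, Nefm was at 0.05, Nefh at 0.06 and Ak7 at 0.52. The erythrocyte median was 1.59 without WT replicate 4, against 0.45 with all libraries, and the choroid plexus median -1.13 without CyrKO replicate 1, against -0.36. Each was the highest library of its group for that list, so leaving it out widens the difference by construction. Depth limits genes under a mean normalised count of 50, where 26.6% of intervals lay inside 1.5-fold.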
